A study of Mus musculus with 6 samples.

Results

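Amino acid transporters of the plasma membrane and the lysosome were taken as all genes of the table whose symbols begin with Slc1a, Slc3a, Slc6a, Slc7a, Slc36a, Slc38a or Slc43a followed by a digit. The rule found 51 of 16547 genes. Of these, 48 are named as carriers and 3 (Slc6a19os, Slc7a6os and Slc36a1os) are genes on the opposite strand beside a carrier, which the rule takes by their symbols. The rule uses gene names and no measured value. RNA came from pancreatic islets of C57BL/6 mice aged 11 to 12 weeks, isolated with collagenase, picked by hand and kept in culture for 2 days, with 3 libraries in each of 2 groups. The control group, labelled WT, carried the floxed Kcnj11 allele (Kcnj11 fl/fl). The knockout group, labelled bKO (βKcnj11 -/-), lacked Kcnj11 in beta cells, so that the other cells of these islets keep the gene. The labels name no driver of the deletion, nor do they say whether a library came from 1 animal or a pool. If the libraries of a group were not separate animals, the p-values below measure only the spread between these samples, which may be technical.

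Amino acids reach islet cells through carrier families with different substrates and driving forces. Leucine and other large neutral amino acids enter by light chains of the SLC7 family, which are held at the membrane by a heavy chain of the SLC3 family. Arginine and lysine enter by cationic carriers of the same family and bring positive charge with them. Glutamine and alanine enter with sodium through SLC38 carriers, and lysosomal carriers release the products of protein breakdown. In beta cells, where the ATP-sensitive potassium channel formed with the product of Kcnj11 sets the membrane potential, leucine with glutamine, and arginine, are classic stimuli of insulin secretion.

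The libraries differed by more than genotype. Kcnj11 was at 19.7, 24.7 and 25.4 FPKM (fragments scaled to transcript length and to sequencing depth) in WT libraries and at 3.45, 5.31 and 3.51 FPKM in bKO libraries, in the direction of the labels. Here and below, values of single libraries stand in the order of replicates 1, 2 and 3. Depth, estimated from the steps between low FPKM values, was 23100000 to 27500000 fragments in WT and 26600000 to 40500000 fragments in bKO libraries. The summed FPKM of 23 acinar cell markers, genes of the enzyme-secreting exocrine cells, was 1606 in WT replicate 1 and 15468 to 33988 in the other 5 libraries. Across genes, bKO replicate 1 had a Pearson correlation of 0.9986 with bKO replicate 3, above the 0.9816 to 0.9956 of the other 14 pairs of libraries, and nothing in the labels says whether the pair shares a source. Stellate cell and pericyte markers summed to 158.5 to 397 FPKM in WT and 265 to 501 in bKO, and leukocyte markers to 133 to 168 and 110.2 to 116. Summed beta cell markers, which include the insulin genes, were at 271368 to 359828 FPKM in WT and 217026 to 293735 in bKO libraries. In such mixed tissue, fewer cells of a type and less RNA per cell cannot be told apart.

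In summed FPKM, transporter transcripts as a group overlapped between the genotypes. Their summed FPKM was 685, 720.4 and 715 in WT replicates 1 to 3 and 707, 749 and 706 in bKO replicates 1 to 3, so that the groups overlapped. The mean was 707 ± 19.2 in WT and 721 ± 24.5 in bKO (SD, n = 3 each). Of all FPKM, the members held 0.0925%, 0.0875% and 0.0957% in WT and 0.0990%, 0.0995% and 0.1005% in bKO replicates 1 to 3. This share was higher in every bKO library than in every WT library. The total includes the insulin genes, which held 36.1%, 37.4% and 29.8% of it in WT and 27.3%, 33.5% and 26.4% in bKO replicates 1 to 3. With the insulin genes left out of the total, the members' share overlapped between the groups. Because FPKM are per length, levels can be set beside each other across genes. The means spanned a wide range, with 4 members at or above 50 FPKM, 15 between 10 and 50, 14 between 1 and 10, and 18 below 1 FPKM. The 10 highest members held 71.2% to 75.4% of the summed FPKM of all members in each library. In descending order of their mean these were Slc3a2, Slc38a10, Slc7a5, Slc38a4, Slc7a14, Slc38a2, Slc6a6, Slc6a8, Slc7a8 and Slc43a2. Neighbours in this order were often closer than the spread between libraries, such as Slc38a2 and Slc6a6, with means of 33.5 and 33.1 FPKM.

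**Figure D1:**
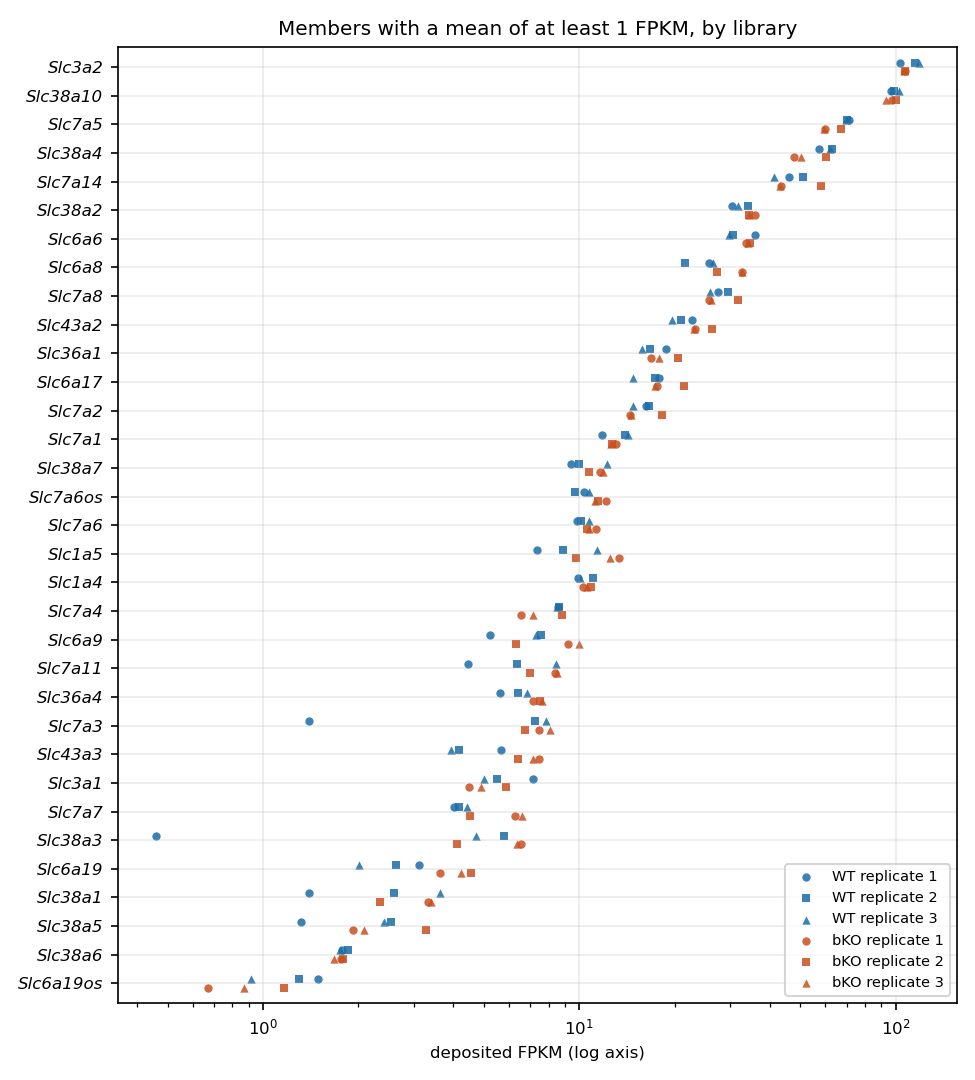
Deposited FPKM (log axis) of the 33 members with a mean of at least 1 FPKM in each of the 6 libraries, ordered by their mean. Blue marks are WT and orange marks bKO libraries, and the shape gives the replicate. For most members the groups lie on top of each other, while Slc38a3 and Slc7a3 have 1 low library, WT replicate 1.

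In the comparison of bKO with WT islets, 0 of the 49 members that could be tested passed, where 0.194% of all 15962 genes tested did, 0.0626% with higher and 0.132% with lower values in bKO (limma on quantile-normalized log2(FPKM + 1), adjusted p below 0.05 over all genes). The other 2, Slc36a1os and Slc6a20a, were listed at 0 in WT replicate 1 and were not tested. At an unadjusted p below 0.05 there were 8 members (16.3%), where the background over all genes was 14.2%. Of these, 4 had higher values in bKO (8.16%, background 5.05%) and 4 had lower values (8.16%, background 9.17%). The median log2 difference of the members was 0.03, and that of all genes was -0.01. The count was 4 without bKO replicate 1, and also 4 without bKO replicate 3, where the share of all genes was 7.73% and 7.57%. In each of these fits the members' share (16.3%, or 8.16% for 4 members) was close to that of the whole table. The smallest adjusted p among the members was 0.173, for Slc1a1.

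If the libraries are separate samples, the data bound the difference for most members rather than leaving it unknown. The intervals count bKO replicates 1 and 3, with their correlation of 0.9986, as separate, and would be too narrow if they were not. Among the 33 members with a mean of at least 1 FPKM, the 95% interval of the log2 difference lay within 2-fold in either direction for 31 and within 1.5-fold for 21. The same shares over all genes of that level were 96.4% and 84.4%, against 93.9% and 63.6% of the members. The 2 members whose intervals reached past 2-fold were Slc38a3 and Slc7a3. On the log2(FPKM + 1) scale used here, differences of low genes come out smaller than their fold in FPKM.

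**Figure D2:**
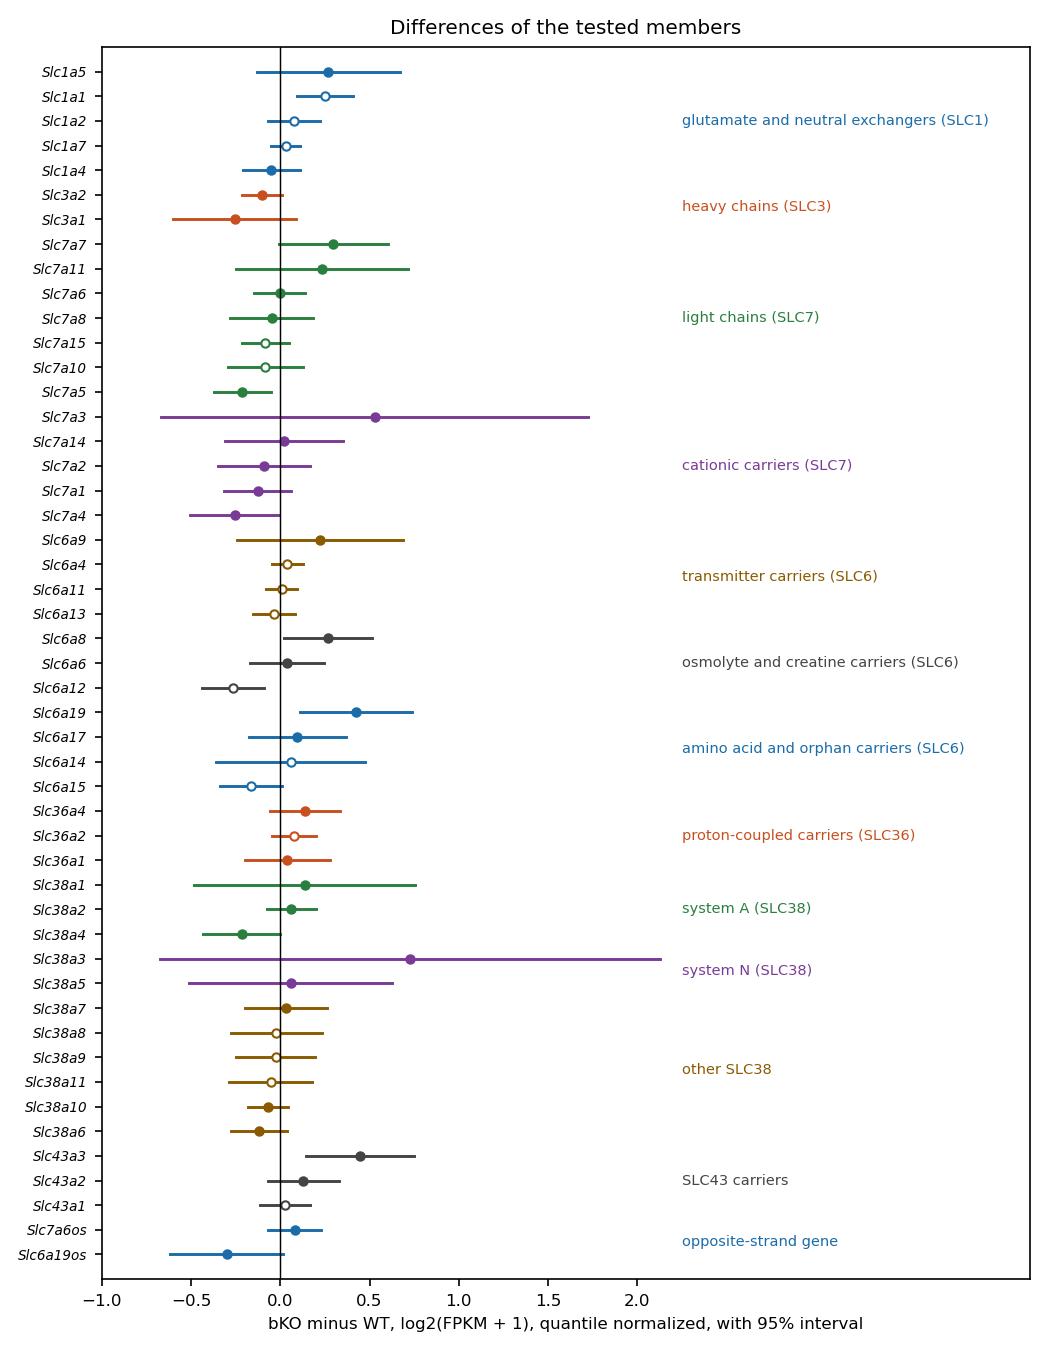
Difference of bKO minus WT for the 49 tested members on the quantile-normalized log2(FPKM + 1) scale, with 95% intervals from limma (3 libraries in each group), ordered by role. Filled points have a mean of at least 1 FPKM and open points less. The intervals of Slc38a3 and Slc7a3 are the widest, and 8 intervals do not include 0, none of which passed after adjustment.

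The heavy chains and their light chains held Slc3a2, the most abundant member, and Slc7a5, which was lower in every bKO library. Slc3a2, which encodes 4F2hc (CD98), the heavy chain of most light chains measured here, was at 103, 115 and 118 FPKM in WT and at 107, 107 and 106 FPKM in bKO. The groups overlapped on this scale, and the log2 difference was -0.10 (SE 0.05, limma adjusted p = 0.388). Slc7a5 encodes LAT1, the leucine-preferring exchanger that pairs with it. It was at 71.5, 70.3 and 69.9 FPKM in WT and at 59.6, 67.1 and 59.5 FPKM in bKO. All bKO libraries lay below all WT libraries, and bKO replicate 2 was the nearest to WT. Its means were 70.6 ± 0.82 and 62.1 ± 4.39 FPKM (SD, n = 3 each), 0.88 of the WT level (log2 difference -0.21, SE 0.07, limma adjusted p = 0.239). Slc7a8, encoding LAT2, the other large neutral exchanger, had means of 27.6 ± 1.86 (WT) and 27.8 ± 3.31 FPKM (bKO), with a 95% interval of the log2 difference from -0.28 to 0.18.

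Slc3a1 encodes rBAT, the second heavy chain, known from cystine uptake in the kidney. It was at 7.15, 5.49 and 4.997 FPKM in WT and at 4.48, 5.87 and 4.87 FPKM in bKO, with overlap (limma adjusted p = 0.468). Slc7a7 and Slc7a6 encode the light chains y+LAT1 and y+LAT2, which exchange cationic for neutral amino acids. Slc7a7 was at 4.02, 4.18 and 4.41 FPKM in WT and at 6.26, 4.51 and 6.57 FPKM in bKO. The groups did not overlap in FPKM, although bKO replicate 2 was only slightly above WT, and overlapped after normalization (log2 difference 0.30, SE 0.13, limma adjusted p = 0.363). Slc7a6 was at 10.2 ± 0.48 and 10.9 ± 0.36 FPKM. Slc7a10, the light chain Asc-1, and Slc7a15 had means of 0.16 FPKM each.

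Slc7a11 encodes xCT, the cystine and glutamate exchanger and a classic target of the amino acid response, in which the factor ATF4 binds an element with the core TGATGNAA. It was at 4.44, 6.37 and 8.47 FPKM in WT and at 8.41, 6.998 and 8.51 FPKM in bKO, with overlap. WT replicate 1 was the lowest library (log2 difference 0.23, SE 0.20, limma adjusted p = 0.617). The core, written TGATGNAA and searched on both strands in the 250 bases before each RefSeq start (GRCm38.p6), was found for 2 of the 39 members with an entry, Slc7a11 and Slc7a7. That is 5.13% of the members, and 3.91% of the 27025 genes in the RefSeq promoter table hold it. 1 upstream window of each is shown, with the core in capitals, because these are the members that hold it. In Slc7a11 the core stands once on each strand, 58 and 39 bases before the start.
Slc7a11 (chr3:50443614-50443863, minus strand): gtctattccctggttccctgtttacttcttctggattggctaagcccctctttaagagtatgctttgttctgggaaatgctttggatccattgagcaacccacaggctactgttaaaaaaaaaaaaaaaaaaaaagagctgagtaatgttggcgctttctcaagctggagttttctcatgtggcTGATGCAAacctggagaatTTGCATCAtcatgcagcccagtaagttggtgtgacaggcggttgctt
Slc7a7 (chr14:54417945-54418194, minus strand): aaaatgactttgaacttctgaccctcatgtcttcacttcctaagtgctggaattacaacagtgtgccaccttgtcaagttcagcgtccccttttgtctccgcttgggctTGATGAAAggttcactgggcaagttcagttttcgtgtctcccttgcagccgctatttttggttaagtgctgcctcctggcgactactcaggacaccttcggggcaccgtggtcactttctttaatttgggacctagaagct
A match is a description of these letters and says nothing of binding in islets. The window of another annotated start of Slc7a7 overlaps the one shown, holds the core as well and is not printed. The members with no entry in the table were Slc1a5, Slc36a2, Slc38a1, Slc38a3, Slc43a3, Slc6a15, Slc6a6, Slc6a8, Slc7a2, Slc7a3, Slc7a4 and Slc7a5.

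Cationic carriers, the route of arginine, included Slc7a14, which is among the 10 most abundant members. It is a member of this branch with a poorly known substrate and was at 46.0, 50.8 and 41.3 FPKM in WT and at 43.5, 58.2 and 43.04 FPKM in bKO, where replicate 2 exceeded every other library. Slc7a2, encoding CAT2, was at 15.9 ± 0.98 and 15.7 ± 2.15 FPKM (limma adjusted p = 0.701). Slc7a1, encoding CAT1, was at 13.4 ± 1.36 and 12.8 ± 0.26 FPKM (limma adjusted p = 0.498). Slc7a4, an orphan of this branch, was at 8.57, 8.65 and 8.49 FPKM in WT and at 6.56, 8.84 and 7.14 FPKM in bKO, so that the range of the bKO libraries enclosed the narrow WT range (log2 difference -0.26, SE 0.10, limma adjusted p = 0.336). Slc7a3, encoding CAT3, is described with Slc38a3 below.

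The SLC38 family held Slc38a10 and Slc38a4, both among the 10 most abundant members. Slc38a10, a poorly characterised member, had means of 99.3 ± 3.12 (WT) and 96.9 ± 3.69 FPKM (bKO), a 95% interval of the log2 difference of -0.18 to 0.04. Slc38a4 and Slc38a2 encode the system A carriers SNAT4 and SNAT2, which take up alanine and glutamine with sodium. Slc38a4 was at 57.1, 62.9 and 61.9 FPKM in WT and at 47.8, 60.3 and 50.4 FPKM in bKO. The lowest libraries were bKO replicates 1 and 3, bKO replicate 2 was within the WT range, and the log2 difference was -0.22 (SE 0.09, limma adjusted p = 0.344). Slc38a2, whose RNA is known to respond to amino acid supply, was at 30.4, 34.1 and 31.8 FPKM in WT and at 35.9, 34.3 and 34.3 FPKM in bKO. The bKO values lay above WT by a small margin in deposited FPKM and overlapped after normalization (limma adjusted p = 0.636). Slc38a1, SNAT1, was far lower, at 2.54 ± 1.12 and 3.02 ± 0.59 FPKM.

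Of the lysosomal members, Slc38a9, the arginine sensor of the kinase complex mTORC1, was near 1 FPKM, at 0.95 ± 0.17 in WT and 1.01 ± 0.06 in bKO (95% interval of the log2 difference -0.25 to 0.20). Slc38a7, a lysosomal carrier of glutamine, was at 10.5 ± 1.48 and 11.4 ± 0.58 FPKM. Slc36a1 encodes PAT1, a proton-coupled carrier of small amino acids, and was at 17.1 ± 1.54 and 18.5 ± 1.91 FPKM. Slc36a4, its relative PAT4, was at 5.63, 6.39 and 6.82 FPKM in WT and at 7.15, 7.53 and 7.61 FPKM in bKO. Its groups did not overlap in FPKM, but did after normalization (limma adjusted p = 0.482). Among other SLC38 and SLC36 members, not taken as lysosomal here, Slc38a6 was at 1.79 ± 0.05 and 1.74 ± 0.05 FPKM. Slc38a8, Slc38a11 and Slc36a2 had means from 0.09 to 0.38 FPKM.

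Glutamate and neutral exchangers of the SLC1 family included the member with the smallest p. Slc1a1 encodes EAAT3, a glutamate, aspartate and cysteine transporter. It was at 0.74, 0.55 and 0.50 FPKM in WT and at 1.11, 0.91 and 0.93 FPKM in bKO, about 45.0 to 61.9 and 87.8 to 130.4 fragments by the depth estimate. All bKO libraries lay above all WT libraries, 1.64-fold in the means of 0.60 ± 0.13 and 0.98 ± 0.11 FPKM (SD, n = 3 each), with a log2 difference of 0.25 (SE 0.06, limma unadjusted p = 0.00690, adjusted p = 0.173). Slc1a5, encoding the glutamine exchanger ASCT2, was at 7.33, 8.87 and 11.3 FPKM in WT and at 13.3, 9.77 and 12.5 FPKM in bKO, with overlap through bKO replicate 2 (limma adjusted p = 0.503). Slc1a4, encoding ASCT1, was at 10.3 ± 0.60 and 10.6 ± 0.31 FPKM. Slc1a2, a glutamate transporter of astrocytes, and Slc1a7 were at 0.12 and 0.06 FPKM in the mean. For Slc1a7 this is about 3.0 to 4.0 fragments in WT and 5.0 to 7.9 in bKO libraries, before any allowance for depth.

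SLC6 carriers of osmolytes and creatine were among the more abundant members. Slc6a6 encodes the taurine transporter and had means of 32.1 ± 3.38 in WT and 34.2 ± 0.43 FPKM in bKO (95% interval of the log2 difference -0.17 to 0.25). Slc6a8 encodes the creatine transporter. It was at 25.6, 21.5 and 26.5 FPKM in WT and at 32.6, 27.3 and 32.8 FPKM in bKO. The groups did not overlap, 1.26-fold in the means (log2 difference 0.27, SE 0.10, limma adjusted p = 0.320). Slc6a12, the betaine and GABA transporter, was low, at 0.55, 0.25 and 0.43 FPKM in WT and at 0.21, 0.20 and 0.16 FPKM in bKO. Here every bKO library was below every WT library, at about 10.3 to 19.4 fragments against 16.4 to 30.8, with a log2 difference of -0.27 (SE 0.07, limma adjusted p = 0.188).

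Slc6a19 encodes B0AT1, the sodium-coupled neutral amino acid carrier of gut and kidney, and Slc6a17 encodes NTT4, a vesicular carrier of neurons. Slc6a19 was at 3.11, 2.63 and 2.01 FPKM in WT and at 3.63, 4.56 and 4.23 FPKM in bKO. No bKO library lay within the WT range, and the means of 2.58 ± 0.55 and 4.14 ± 0.47 FPKM differed 1.60-fold (log2 difference 0.43, SE 0.13, limma adjusted p = 0.239). The opposite-strand gene Slc6a19os had the reverse order of means, 1.23 ± 0.29 in WT and 0.90 ± 0.25 FPKM in bKO, with overlap (limma adjusted p = 0.371). The RefSeq spans of the pair overlap by 826 bases, and since a stranded count is not stated, reads of the shared stretch cannot be told apart. Slc6a17 was at 16.7 ± 1.68 and 18.8 ± 2.33 FPKM. Slc7a6os, the other opposite-strand gene tested, was at 10.3 ± 0.54 and 11.6 ± 0.51 FPKM, with bKO above WT in FPKM and overlap after normalization (limma adjusted p = 0.580).

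Carriers of transmitters were low apart from Slc6a9, which encodes the glycine transporter GlyT1. It was at 5.20, 7.55 and 7.30 FPKM in WT and at 9.20, 6.30 and 9.99 FPKM in bKO, with bKO replicate 2 inside the WT range (limma adjusted p = 0.622). Slc6a4, the serotonin transporter, was at 0.04 ± 0.01 and 0.07 ± 0.01 FPKM, about 2.0 to 6.9 fragments in a library. Slc6a11 and Slc6a13, carriers of GABA, had means of 0.04 and 0.10 FPKM. Slc6a14 and Slc6a15, carriers of neutral amino acids, had means of 0.71 and 0.36 FPKM. Slc6a20a, a proline carrier, had a highest library of 0.08 FPKM.

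Among SLC43 carriers, Slc43a2 encodes LAT4, which lets branched-chain amino acids and phenylalanine leave cells. It was at 22.6, 21.0 and 19.7 FPKM in WT and at 23.2, 26.4 and 23.1 FPKM in bKO, with bKO above WT in FPKM and overlap after normalization (limma adjusted p = 0.516). Slc43a3, a relative known to carry purine bases rather than amino acids, was at 5.67, 4.15 and 3.92 FPKM in WT and at 7.47, 6.38 and 7.13 FPKM in bKO. The groups did not overlap, and the means of 4.58 ± 0.95 and 6.99 ± 0.56 FPKM differed 1.53-fold (log2 difference 0.45, SE 0.13, limma adjusted p = 0.206). The summed FPKM of 16 endothelial markers was also without overlap, at 230.0 to 249 in WT and 332 to 341 in bKO libraries, while the stellate cell and pericyte sums above overlapped. Of these 16 markers, 16 had positive differences (background 47%), 2 passed the test (background 0.194%) and 0 were at 0 in any library. Their part in the value of Slc43a3 was not tested. Slc43a1, encoding LAT3, had a mean of 0.22 FPKM.

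Groups without overlap depended on the scale. In deposited FPKM, 11 members lay higher in every bKO library than in every WT library (22.4%, background 15.3%) and 2, Slc7a5 and Slc6a12, lay lower (4.08%, background 6.48%). After quantile normalization 5 lay higher (10.2%, background 7.1%) and 6 lower (12.2%, background 12.6%). The 5 were Slc1a1, Slc1a7, Slc6a8, Slc6a19 and Slc43a3, which were among the 11. The 6 were Slc7a5, Slc6a12, Slc3a2, Slc38a10, Slc38a6 and Slc7a4. The insulin genes took 29.8% to 37.4% of all FPKM in WT and 26.4% to 33.5% in bKO libraries.

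Slc38a3 and Slc7a3 stood apart from the other members by 1 library. Slc38a3 encodes SNAT3, a system N carrier of glutamine and histidine. It was at 0.46, 5.78 and 4.73 FPKM in WT and at 6.55, 4.12 and 6.36 FPKM in bKO, so that WT replicate 1 had 0.087 of the mean of the other WT libraries. Slc7a3 was at 1.402, 7.23 and 7.83 FPKM in WT and at 7.47, 6.75 and 8.05 FPKM in bKO, with WT replicate 1 at 0.186 of the mean of the others. In both, the other 5 libraries overlapped across genotypes. The log2 difference was 0.72 for Slc38a3 (SE 0.58, limma adjusted p = 0.592) and 0.53 for Slc7a3 (SE 0.50, limma adjusted p = 0.645). Without WT replicate 1 these became 0.01 and -0.10 (limma adjusted p = 0.992 and 0.614).

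WT replicate 1 was also the lowest library for Slc38a1, Slc7a11, Slc1a5 and Slc6a9, with 0.449, 0.598, 0.725 and 0.701 of the mean of the other WT libraries. Without it, their log2 differences of 0.14, 0.23, 0.27 and 0.22 became -0.15, 0.02, 0.13 and 0.07. In bKO replicate 2 these 4 genes and Slc38a3 were at 0.638 to 0.828 of the mean of bKO replicates 1 and 3, and Slc7a3 was at 0.870. The 4 genes were picked with their values in view. Other members were lowest in WT replicate 1 as well, among them Slc1a4, Slc36a4, Slc38a2, Slc38a7, Slc3a2, Slc7a1, Slc7a6 and Slc7a7. In bKO replicate 2 these were at 1.04, 1.02, 0.978, 0.917, 1.01, 0.994, 0.962 and 0.702 of that mean. Acinar markers were likewise lowest in WT replicate 1 and lower in bKO replicate 2 than in the other bKO libraries. Their median distance from the WT mean, in log2 units, was -2.58 in WT replicate 1, 1.11 and 1.33 in WT replicates 2 and 3, 1.81 in each of bKO replicates 1 and 3, and 0.71 in bKO replicate 2. Of 22 acinar markers tested, 21 had positive differences (background 47%) and 0 passed (background 0.194%), and Ctrc was at 0 in at least 1 library. The summed FPKM of 10 duct cell markers had a like order, at 2696, 2869 and 3603 in WT and 4236, 3277 and 4169 in bKO replicates 1 to 3. Of these 10 markers, 9 had positive differences (background 47%) and 0 passed (background 0.194%). The part of acinar or duct cell RNA in these values was not tested. Slc38a5, the other system N carrier, which alpha cells of the mouse are known to express, was at 1.32, 2.55 and 2.41 FPKM in WT and at 1.93, 3.28 and 2.08 FPKM in bKO, lowest in WT replicate 1 and highest in bKO replicate 2.

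Other members had the reverse order of bKO libraries, and those given here were picked with their values in view. Slc7a14, Slc7a4, Slc7a2, Slc38a4 and Slc7a8 were at 1.34, 1.29, 1.26, 1.23 and 1.22 times the mean of bKO replicates 1 and 3 in bKO replicate 2. Less abundant members with such a ratio were Slc38a5 at 1.63, Slc6a19os at 1.52 and Slc3a1 at 1.26. Abundance did not go with it throughout, since the ratio was 1.01 for Slc3a2, 1.05 for Slc38a10, 0.978 for Slc38a2, 1.02 for Slc6a6 and 0.836 for Slc6a8. Summed beta cell markers reached 293735 FPKM in bKO replicate 2, against 226308 and 217026 in the other bKO libraries. Summed alpha cell markers, a list that holds Slc38a5 and is mostly glucagon, were at 15280 FPKM in bKO replicate 2 against 9807 and 9846. Summed delta cell markers, a list that also holds Ppy and Pyy, were at 19744 FPKM there against 16131 and 16490. Stellate cell and pericyte markers were lower in that library, at 265 FPKM against 501 and 494. Whether these shares bear on the carriers was not tested.

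**Figure D3:**
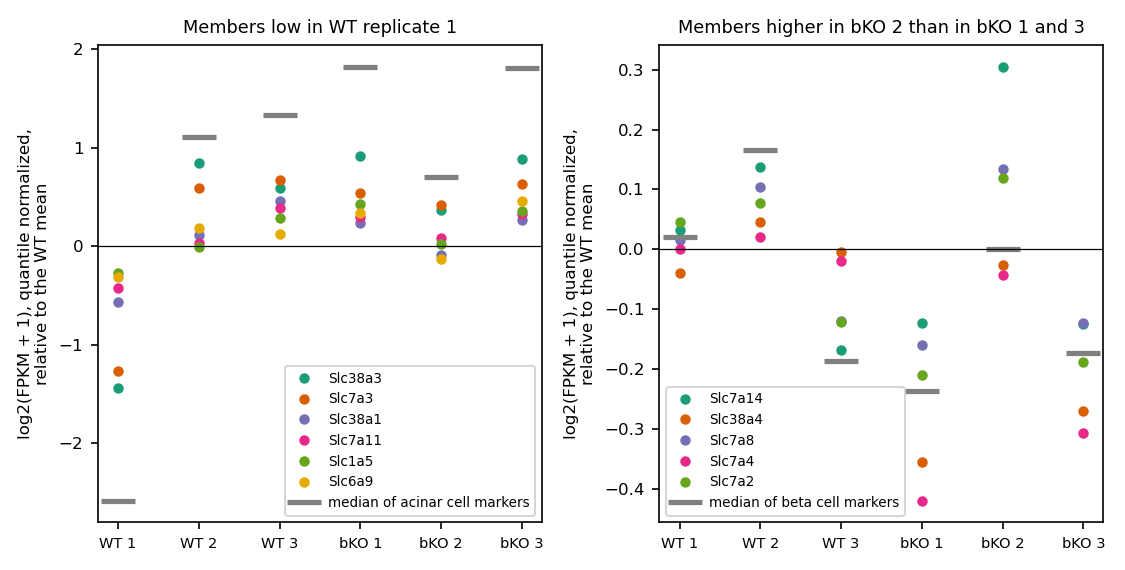
Values of members in each library on the quantile-normalized log2(FPKM + 1) scale, relative to the WT mean. Left, 6 members with their lowest value in WT replicate 1, picked with their values in view, beside the median of 22 acinar markers (grey bars, -2.58 in that library). Right, 5 members that are higher in bKO replicate 2 than in bKO replicates 1 and 3, beside the median of 13 beta cell markers (grey bars). Quantile normalization gave Ins1 and Ins2 of that list the same value in every library. The grey bar of bKO replicate 2, at 0, falls on that value and is no measure of the insulin level.

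Genes that answer to amino acid supply or use it were set beside the carriers. The list of the amino acid response holds Atf4 itself, Eif2ak4 and genes switched on by ATF4 when amino acids are short. In it, 0 of 22 passed over all genes. At an unadjusted p below 0.05, 9 had lower values in bKO (40.9%, background 9.17%), with 0 higher (background 5.05%). Of the 22, 14 had negative differences (63.6%, background 53%) and 8 had positive differences (36.4%, background 47%). The median log2 difference was -0.16. The genes of this list named next are all among the 14. Atf5, a factor of this response, was at 117, 126 and 116 FPKM in WT and at 92.3, 104 and 92.0 FPKM in bKO, without overlap (log2 difference -0.34, limma adjusted p = 0.116). Pycr1, an enzyme of proline synthesis, was at 5.40 ± 0.46 and 3.87 ± 0.30 FPKM (limma adjusted p = 0.109), and Vldlr, a lipoprotein receptor, at 12.9 ± 0.76 and 9.81 ± 0.49 (0.0844). Atf4 itself was at 217 ± 10.02 and 184 ± 3.77 FPKM, and Asns, the asparagine synthetase, at 123 ± 16.5 and 102 ± 2.15 (limma adjusted p = 0.205 and 0.207). These last genes were picked with their values in view. Some of the carriers known as targets of this response were picked to stand beside it, and they are not the full set. Their log2 difference was 0.23 for Slc7a11, 0.06 for Slc38a2, -0.10 for Slc3a2 and -0.21 for Slc7a5. None of these passed. Without WT replicate 1 the values were 0.02, 0.04, -0.13 and -0.18.

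In the list of amino acid sensing by mTORC1, 0 of 30 passed and 9 had lower values at an unadjusted p below 0.05 (30%, background 9.17%), with 0 higher (background 5.05%). Of the 30, 27 had negative differences, as did 53% of all genes tested. The median was -0.07, and -0.01 over all genes. Flcn and Fnip2 encode folliculin and a partner, which act on the Rag GTPases at the lysosome. Flcn had means of 21.3 ± 1.79 in WT and 16.7 ± 1.88 FPKM in bKO, and Fnip2 at 12.1 ± 0.60 and 9.67 ± 0.48 (limma adjusted p = 0.163 and 0.0968). Lamtor2, a subunit of the lysosomal anchor of these GTPases, was at 95.8 ± 6.95 and 84.0 ± 3.36 FPKM (0.146). Of 20 cytosolic aminoacyl-tRNA synthetases, which load amino acids onto tRNA, 0 passed and 10 had lower values at an unadjusted p below 0.05 (50%, background 9.17%), with 0 higher (background 5.05%) and a median of -0.13. The log2 difference was -0.18 for Aars (alanine), -0.26 for Mars (methionine) and -0.22 for Lars (leucine), at limma adjusted p = 0.188, 0.190 and 0.239. That count was 2 with bKO replicates 1 and 3 averaged or with either left out, 3 without WT replicate 2 and 4 without quantile normalization. The share of all genes at that p, in either direction, was 14.2% in the fit reported, 7.57% to 7.75% in the former fits, 9.53% without WT replicate 2 and 15.7% without quantile normalization.

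In the list of amino acid metabolism 0 of 32 passed, with 4 lower (12.5%, background 9.17%) and 1 higher (3.12%, background 5.05%) at an unadjusted p below 0.05, near the share of the whole table. Cbs, which joins homocysteine and serine, was at 27.7, 34.6 and 33.8 FPKM in WT and at 21.4, 21.6 and 21.6 FPKM in bKO (log2 difference -0.60, limma adjusted p = 0.0640). Without WT replicate 1 it passed the test, at a log2 difference of -0.69 (limma adjusted p = 0.0289). Gad1, which makes GABA from glutamate, was at 11.9, 9.66 and 8.02 FPKM in WT and at 4.32, 5.81 and 4.30 FPKM in bKO (-0.99, limma adjusted p = 0.0968). In both genes every bKO library was below every WT library. Gpt2, a mitochondrial alanine aminotransferase, was at 9.23 ± 0.66 and 7.98 ± 0.45 FPKM (0.217). Of 15 other amino acid carriers, 0 passed and 2 had lower values at an unadjusted p below 0.05 (13.3%, background 9.17%). Ctns, the lysosomal cystine exporter, was at 10.8, 10.7 and 10.1 FPKM in WT and at 8.53, 8.80 and 9.04 FPKM in bKO, without overlap (log2 difference -0.32, limma adjusted p = 0.108). Slc25a44, a mitochondrial carrier of branched-chain amino acids, differed by -0.18 on the log2 scale (limma adjusted p = 0.320), and Slc15a3, a lysosomal carrier of histidine and peptides, by 0.15 (0.418).

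**Figure D4:**
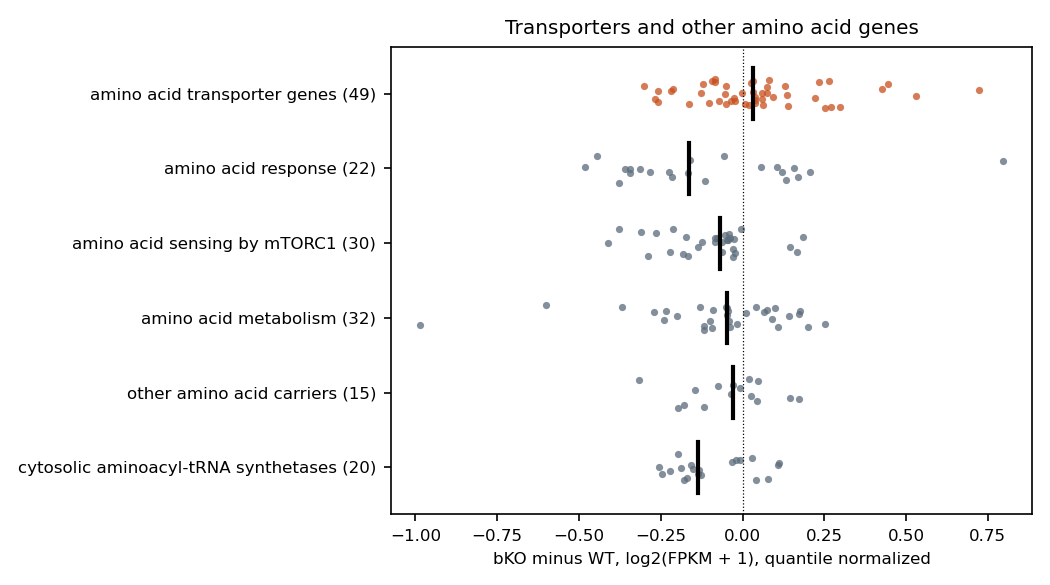
Difference of bKO minus WT on the quantile-normalized log2(FPKM + 1) scale for each tested gene of the carriers (orange) and of 5 other lists of amino acid genes (grey), with the number of genes in brackets and black bars at the medians. The median is 0.03 for the carriers and lies between -0.16 and -0.03 for the other lists.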

How the data were processed

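Islet RNA of 3 WT and 3 bKO libraries was sequenced. Deposited values are FPKM made by the authors' service provider with Cufflinks, per the labels and design text, on mm9 (from the submitters' processing notes). The aligner is not given in the sources used here. Although the design text speaks of log values, quantile normalization and dropping zeros, the deposited FPKM are linear, and 585 genes are at 0 in at least 1 library. Of 16547 named genes, 4471 list several transcripts with 1 value. A row of column medians and a blank row were left out.

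The 15962 genes above 0 in all libraries were tested. Their values were taken as log2(FPKM + 1), quantile normalized, and tested as bKO minus WT with limma 3.58.1 in R 4.3.3 (eBayes with trend, two-sided, Benjamini-Hochberg over all genes tested). Lists are described by counts and medians with no test. Members, lists and alternatives were chosen with earlier results of these data known. Named members are the 20 with the smallest p at a mean of at least 1 FPKM, the 10 most abundant, those at 0 and a fixed set of carriers, and any other member may be named with its level. Slc1a1, Slc6a12, Slc7a3 and Slc38a1 fall outside that rule and have their differences given after their values were seen. Each pathway list gives its 3 smallest p.

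Depth came from the FPKM steps of 11518 genes with 1 transcript, using transcript lengths of another build (GRCm38). In each library, 60.7% to 68.2% of 605 to 985 low values were within 0.1 of a whole fragment, so it is an estimate. Alternatives were other pseudocounts, scalings, filters and variance models, a block for replicate number, omission of each library in turn, and bKO replicates 1 and 3 averaged. Whether the replicate numbers pair the libraries could not be settled with 3 libraries in each group, and the fit reported has no block. Promoters and gene spans are RefSeq, GRCm38.p6. Other steps ran in Python 3.11.15 with pandas 2.3.3, numpy 2.4.6 and scipy 1.17.1; figures used matplotlib 3.10.9. The limma and depth steps were checked on simulated data.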

Additional observations from a re-analysis of the deposited data

How the results depend on the processing

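No carrier was called in any of the 14 alternatives, with a smallest adjusted p of 0.0808 (Slc43a3 without WT replicate 1). The count of carriers at an unadjusted p below 0.05, 8 in the fit reported, was 4 with bKO replicates 1 and 3 averaged and 4 to 10 when 1 library was omitted. The share of all genes at that p moved from 14.2% to 7.75% and to 7.57% to 20.1% in the same fits. Over all genes, 31 calls became 0 with the replicate block and 0 with bKO replicates 1 and 3 averaged, and 0 to 50 over the libraries left out (50 without WT replicate 1, and 3, 1, 0, 9 and 0 without WT replicates 2 and 3 and bKO replicates 1 to 3). Without quantile normalization they were 19 higher and 20 lower, against 10 and 21. Same-numbered libraries had correlations of their deviations of -0.20, 0.07 and 0.30, and the other pairs -0.37 to 0.31. With 3 libraries in each group this cannot settle whether the replicate numbers mark pairs. The replicate block left the carriers at 8. The median of the carriers, 0.03, was 0.0156 with bKO replicates 1 and 3 averaged, 0.0582 without quantile normalization, where that of all genes was 0.05, and -0.0014 to 0.0294 over the libraries left out. Small differences changed sign. Without quantile normalization Slc1a4, Slc38a9 and Slc7a8 were at 0.0296, 0.0456 and 0.00723, and with median of ratios scaling Slc38a9 was at 0.0187. Over the libraries left out, Slc38a5 ranged from -0.17 to 0.19, Slc38a9 from -0.125 to 0.0365, Slc6a6 from -0.0292 to 0.13, Slc7a14 from -0.12 to 0.0887, Slc7a8 from -0.14 to 0.00499, Slc7a3 from -0.10 to 0.86 and Slc38a1 from -0.15 to 0.36. The cause was not tested. Kcnj11, at a log2 difference of -2.35 (limma adjusted p = 0.0250), kept its direction in the 14 alternatives and missed the threshold in 6, with the replicate block, with bKO replicates 1 and 3 averaged, and without WT replicate 2 or 3 or bKO replicate 1 or 3 (adjusted p = 0.0771 to 0.228). Depth limits the lowest carriers, such as Slc1a7 at 3.0 to 7.9 and Slc6a4 at 2.0 to 6.9 estimated fragments per library.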
